A study of Mus musculus with 10 samples.

Results

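Voltage-gated sodium and calcium channels open when the membrane depolarises, and each is built around a large pore-forming subunit to which smaller subunits attach. Their subunit genes were followed here in cochlear cells of 5 types from mice. Members were chosen by name alone, as every symbol in the count files that reads Scn, a number and a or b, or Cacn, one of the letters a, b and g, and a number. This gave 39 of the 34590 genes listed: 26 calcium channel genes (10 alpha1, 4 alpha2delta, 4 beta and 8 gamma) and 13 sodium channel genes (9 alpha and 4 beta). Scn2a1, a brain-type sodium channel alpha gene, and Nalcn, a sodium leak channel gene, fell outside the naming rule.

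The study asked how supporting cells are turned into hair cells by Atoh1, a transcription factor that starts hair cell development. RNA from handpicked fluorescent cells was amplified and sequenced in bulk, with 2 libraries per cell type. Supporting cells (SCs; libraries 12 and 11, at P27 and P26, where P is the postnatal day) came from mice with Fgfr3iCreER and a Rosa26-CAG-loxP-stop-loxP-tdTomato reporter. Converted hair cells (cHCs; libraries 13 and 16, both at P33) came from mice with the same driver and reporter plus Atoh1-HA and alpha9 AChR-EGFP. Outer hair cells (OHCs) came from mice with 1 prestin-YFP knock-in allele, at P7 (libraries 15 and 14) and as mature OHCs (libraries OHC P21 and OHC P22, named by their age). Inner hair cells (IHCs; libraries IHC P74 and IHC P75) came from mice with a Parvalbumin Cre driver and the tdTomato reporter. The Fgfr3 driver acts in Deiters' and pillar cells, so SCs and cHCs stand for those cell types, and the cHCs are only those that had switched on the EGFP reporter. Parvalbumin Cre also acts in cochlear neurons, and the prestin-YFP allele alters the Slc26a5 locus itself. A supplement of the study names another reporter line for the P7 OHCs than the labels do, and the labels were followed. That supplement lists tamoxifen for the SC and cHC mice and for the line it names for P7 OHCs, and none for the mature OHC and IHC mice. Each cell type had 1 genotype and its own ages, so cell type, genotype and age cannot be told apart. Nor can tamoxifen where SCs or cHCs are compared with mature OHCs or IHCs. Nothing in the labels says how many animals gave a library, and p values measure only the spread between these libraries.

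Hair cells release glutamate at ribbon synapses when calcium enters through L-type channels, whose pore in the cochlea is mainly Cacna1d (CaV1.3). In such channels, beta subunits bring the pore to the membrane and alpha2delta subunits, on its outer face, raise the current. The gamma genes form a family in which Cacng1 is a muscle calcium channel subunit, while others, the TARPs, are best known as partners of AMPA-type glutamate receptors. Sodium channels consist of an alpha pore and of beta subunits that are also adhesion molecules. Immature hair cells are known to fire action potentials that use calcium and, in part, sodium currents, and these are lost with maturation.

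The start regions of 4 genes that the results below turn on are shown first, because the converted cells were made with Atoh1, a bHLH factor, and factors of that class bind hexamers called E-boxes. Sequences are RefSeq windows of the GRCm38.p6 build, 300 bases long, from 250 before to 50 after an annotated gene start, on the strand of the gene. Capitals mark the hexamers searched, CAGCTG (its own reverse complement) and CAGATG (read as CATCTG on the other strand).
Cacna1b, chr2:24763103-24763402, minus strand: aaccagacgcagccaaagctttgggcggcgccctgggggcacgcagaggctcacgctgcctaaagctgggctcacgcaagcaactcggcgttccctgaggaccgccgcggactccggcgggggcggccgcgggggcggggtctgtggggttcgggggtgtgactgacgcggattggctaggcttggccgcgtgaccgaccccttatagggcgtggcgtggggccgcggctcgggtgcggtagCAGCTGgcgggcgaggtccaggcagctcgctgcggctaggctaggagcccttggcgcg
Cacna1d, chr14:30353437-30353736, minus strand, 1 of 2 windows: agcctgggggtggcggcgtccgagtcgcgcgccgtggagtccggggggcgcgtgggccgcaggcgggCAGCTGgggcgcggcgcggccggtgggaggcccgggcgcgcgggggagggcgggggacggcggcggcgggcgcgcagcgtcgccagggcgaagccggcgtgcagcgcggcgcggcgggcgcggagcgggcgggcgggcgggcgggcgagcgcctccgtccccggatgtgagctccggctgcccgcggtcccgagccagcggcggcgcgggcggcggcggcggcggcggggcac
Cacnb2, chr2:14823842-14824141, plus strand, 1 of 2 windows: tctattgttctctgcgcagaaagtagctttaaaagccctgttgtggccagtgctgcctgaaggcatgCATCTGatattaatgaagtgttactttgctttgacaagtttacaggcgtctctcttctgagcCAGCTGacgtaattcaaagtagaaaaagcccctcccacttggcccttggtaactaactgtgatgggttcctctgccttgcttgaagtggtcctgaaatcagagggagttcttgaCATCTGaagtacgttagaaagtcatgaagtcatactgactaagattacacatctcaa
Cacng5, chr11:107911313-107911612, minus strand, 1 of 2 windows: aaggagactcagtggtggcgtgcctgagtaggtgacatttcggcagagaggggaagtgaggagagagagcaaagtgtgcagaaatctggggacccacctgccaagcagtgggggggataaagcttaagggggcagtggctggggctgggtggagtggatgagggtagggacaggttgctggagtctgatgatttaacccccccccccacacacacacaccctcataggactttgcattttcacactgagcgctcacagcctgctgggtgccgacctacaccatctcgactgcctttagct
The Cacna1b window held 1 CAGCTG, beginning at position -8 from the start. In the Cacna1d window shown, 1 CAGCTG began at position -183, and the other Cacna1d window held neither hexamer. The Cacnb2 window shown held 1 CAGCTG and 2 CAGATG, and its other window held 1 CAGCTG. Neither Cacng5 window held a hexamer. Among all 32851 windows of this length, 16.3% held CAGCTG, 17.2% held CAGATG and 30.6% held either. Windows were found for 29 of the 39 members, some with more than 1, and 17 of their 39 windows (43.6%) held either hexamer. A match describes these letters only, and no binding was measured.

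The libraries held between 15016129 and 40518766 reads counted on genes, so that 3 counts, taken as the detection floor, equalled 0.074 to 0.2 CPM (counts scaled to a common library total). Levels are given as CPM scaled by trimmed mean of M values (TMM) factors, which lay between 0.583 (OHC P21) and 1.2. Hair cell type markers matched the labels: Slc26a5 (prestin) was at 1061 to 3789 in the OHC libraries and at most 97.6 elsewhere, Slc17a8 (the glutamate transporter of IHCs) at 1907 and 1763 in the IHC libraries and at most 75.5 elsewhere, and Atoh1 at 364 and 1812 in the cHC libraries and at most 6.44 elsewhere. Markers of other cell types were also found. Of 10 supporting cell markers, 10 and 9 had at least 3 counts in the IHC libraries. Their summed level was 1155 and 928 there, against 22.5 and 10.3 in the mature OHC libraries. The cHCs, which were made from supporting cells, held 1276 in cHC 13 and 882 in cHC 16. In cHC 16 most of it came from Fgfr3 (431) and Prox1 (293), which lay above both SC libraries. All other markers of that list lay below both SC libraries in cHC 16. The collagen genes Col1a2 and Col3a1 were at 223 and 119 in P7 OHC 15 and at 0 in P7 OHC 14. In the IHC libraries the summed level of 10 spiral ganglion neuron markers was 438 and 559, the highest of the cell types. Most of it came from the neurofilament genes Nefl (115 and 358), Nefm (163 and 94.7) and Nefh (80.7 and 72.9). Tubb3 was at 1.25 and 0.344 there, and Thy1 at 5.25 and 3.13. Whether neurons gave these levels was not tested. Prph, which marks type II neurons, was at 0 in all 10 libraries. For 4 of the 10 sample records, the attached file carried the name of another sample, and the file named for the sample was used. SC, cHC and P7 OHC libraries carry numbers of 1 series (11 to 16) and the mature OHC and IHC libraries of another, so differences between these sets cannot be told apart from the series. In bulk RNA, fewer cells of a type and less RNA per cell cannot be told apart.

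Calcium channel genes, which are 26 of the 39 members, also made up most of the members detected. More members were detected in each hair cell type than in supporting cells. At least 3 counts in both libraries were found for 9 members in SCs, 18 in cHCs, 15 in P7 OHCs, 22 in mature OHCs and 22 in IHCs. The share of all genes that met this rule was not computed, so these numbers describe the members only. Genes with any count numbered 15138 and 15849 in SC 12 and 11 and 14332 to 18333 in the hair cell libraries. By class, mature OHCs held 6 of 10 alpha1, 3 of 4 alpha2delta, 3 of 4 beta, 2 of 8 gamma, 4 of 9 sodium alpha and 4 of 4 sodium beta genes. In SCs, both libraries held 2 alpha1, 3 alpha2delta, 2 beta and 1 gamma gene, 1 sodium beta gene and no sodium alpha gene. Cacna1s, the skeletal muscle alpha1 gene, and Cacng1, Cacng6 and Cacng8 had no count in any library, which allows a level of up to 0.2 CPM in the shallowest. The filter on low counts kept 29 members for testing (7 alpha1, 4 alpha2delta, 4 beta, 4 gamma, 6 sodium alpha and 4 sodium beta). The other 10 were the 4 genes without counts, the T-type genes Cacna1h and Cacna1i, Cacng3, and the sodium alpha genes Scn3a, Scn7a and Scn10a. Among these 10, the largest count was 217, of Cacna1h in cHC 16. Cacna1i and Cacng3 reached at most 4 counts in a library. Scn3a reached 109 counts in IHC P75, Scn10a had 36 counts, all in OHC P21, and Scn7a had 1 count in all.

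**Figure D1:**
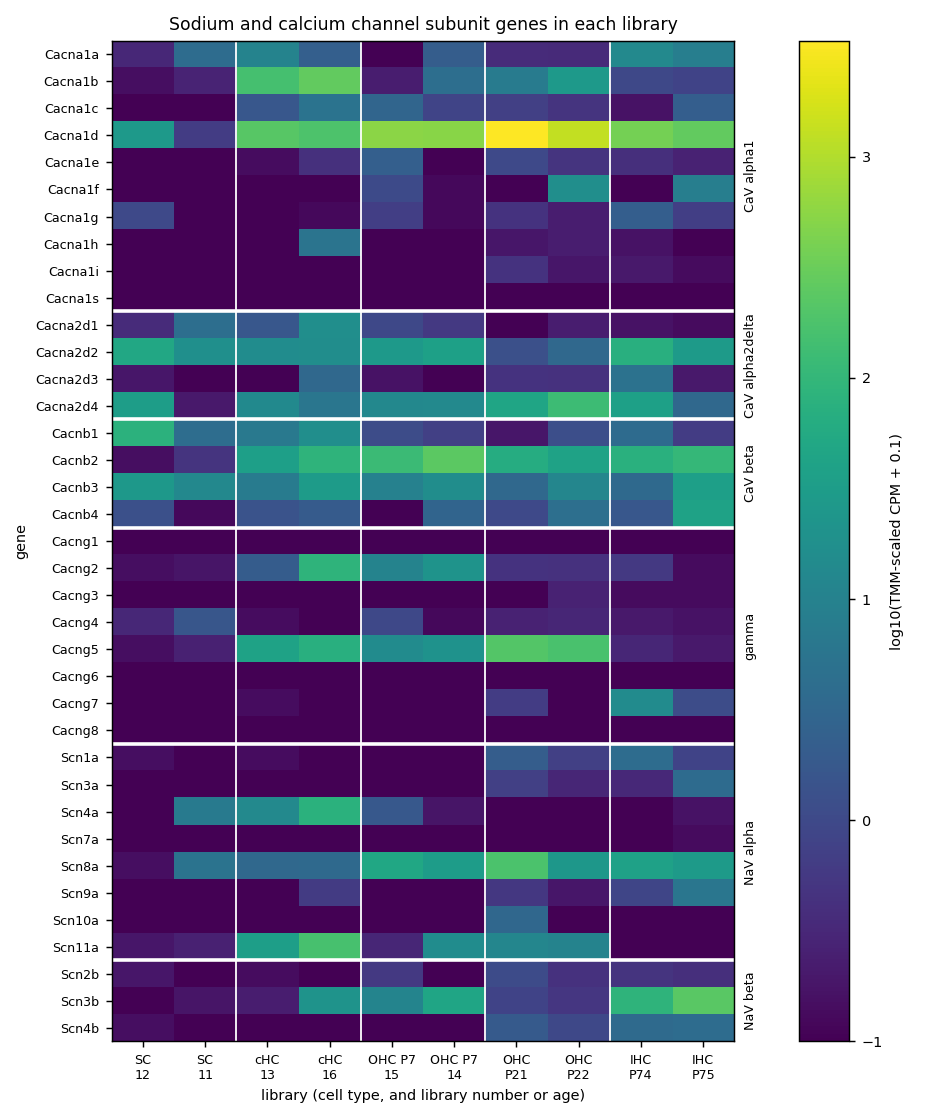
Level of the members reported here (rows, grouped by class) in the 10 libraries (columns, 2 per cell type), as log10 of the TMM-scaled CPM plus 0.1, on a colour scale. Cacna1d is the brightest row and reaches 3347 in OHC P21, and Cacna1b and Scn11a are bright in both cHC libraries.

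Of the 29 members tested, 7 differed among the 5 cell types: the alpha1 genes Cacna1d and Cacna1b, the beta gene Cacnb2, the gamma genes Cacng2 and Cacng5, the sodium alpha gene Scn11a and the sodium beta gene Scn3b. The test was a joint quasi-likelihood F-test in edgeR, with a false discovery rate (FDR) under 0.05 over all 16891 genes tested. Over all those genes 7.81% were called. Without OHC P21 the call of Cacna1d was lost (6 members called), and without cHC 16 those of Cacng2 and Scn11a were lost (5 members called). Against SCs, every call of a member in this edgeR model was a rise. DESeq2, and edgeR without a filter on low counts, also called Cacna2d2, Cacnb1 and Scn4a lower in mature OHCs than in SCs. DESeq2 called Cacnb1 and Scn4a lower in IHCs, and edgeR with a minimum of 10 counts in every library called Cacna2d2 lower in mature OHCs. In cHCs 3 members rose (Cacna1b, Cacnb2 and Cacng5), where 1.84% of all genes were called. This count was 5 without either IHC library and 6 without cHC 13, with Cacng2, Scn11a and, in the latter, Scn3b added. In mature OHCs the same 3 and Cacna1d rose, where 8.02% of all genes were called. In IHCs 2 members rose (Cacnb2 and Scn3b), where 2.65% of all genes were called. The median log2 fold change of the 29 members against SCs was 2.10 in cHCs, 3.81 in mature OHCs and 2.89 in IHCs, beside 0.03, 0.00 and 0.00 over all genes tested. With genes absent from 1 group set to their bound (3 counts in each library), these medians were 1.85, 2.39 and 2.67. The 3 comparisons share the SC libraries. A member that passed the filter only through the group in which it was high had to differ, so these counts and medians describe the members tested and nothing more.

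**Figure D2:**
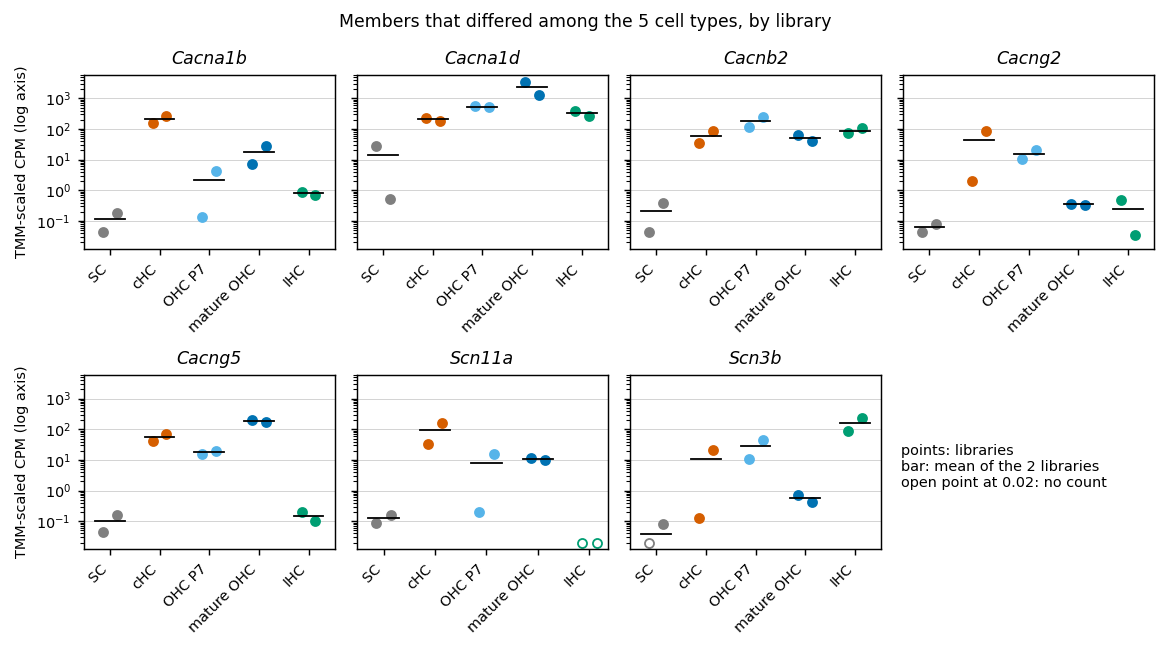
Level of the 7 members that differed among the 5 cell types, as TMM-scaled CPM on a log axis, with a point per library and a bar at the mean of the 2 libraries. Open points at 0.02 stand for no count, and both SC libraries lie below every cHC and mature OHC library in all 7 panels.

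Among the pore-forming calcium channel genes, Cacna1d (ENSMUSG00000015968; mm9 chromosome 14, 30853135 to 31304342, minus strand) was the leading gene per length in every cell type by the mean of its libraries. Cacna1d was at 28.2 in SC 12 and 0.531 in SC 11. In cHC 13 and 16 it was at 228 and 183. The P7 OHC libraries 15 and 14 held 544 and 528, and the mature libraries OHC P21 and OHC P22 held 3347 and 1263. In IHC P74 and IHC P75 it was at 374 and 271. Both SC libraries lay below all hair cell libraries, the mature OHC libraries above all others, and no 2 cell types overlapped. The 2 mature OHC values differed in part through scaling, since the unscaled CPM were 1948 and 1403. Against SCs, Cacna1d was higher in mature OHCs by a log2 fold change of 7.33 (SE 1.44, edgeR FDR 0.0106). The difference was 4.49 in IHCs (SE 1.26, edgeR FDR 0.0996) and 3.84 in cHCs (SE 1.22, edgeR FDR 0.183), neither of which passed, while both passed in DESeq2 and in edgeR without a filter on low counts. Both rest on SCs, whose libraries lay far apart: without SC 12 they were 9.23 and 8.58, with edgeR FDRs of 0.000166 and 0.00039. The difference of IHCs also passed without SC 11, without either P7 OHC library and without either cHC library (edgeR FDR 0.0183 to 0.0498). The order of the cell types by mean level was mature OHCs, P7 OHCs, IHCs, cHCs and SCs. None of the neighbours in that order that were compared passed in this model, although their libraries did not overlap. Mature against P7 OHCs gave 2.10 (SE 1.13, edgeR FDR 0.419), and this difference passed without a filter on low counts. P7 OHCs and IHCs were not compared. IHCs against cHCs gave 0.65 (SE 1.09, edgeR FDR 0.871). Mature OHCs against cHCs gave 3.49 (SE 1.20, edgeR FDR 0.155), P7 OHCs against cHCs 1.38 (SE 1.11, edgeR FDR 0.704), and IHCs against mature OHCs -2.84 (SE 1.17, edgeR FDR 0.288). DESeq2, limma-voom and edgeR without a filter on low counts called the difference of mature OHCs from cHCs. That of IHCs from mature OHCs was called by limma-voom and by edgeR without a filter. Without SC 11 or SC 12, the difference of mature OHCs from cHCs passed (edgeR FDR 0.00251 and 0.00249), as did that of IHCs from mature OHCs (edgeR FDR 0.0104 and 0.0105). An exon of Cacna1d overlaps the choline dehydrogenase gene Chdh, which was at 95 and 163 in the SC libraries, 396 and 136 in OHC P21 and OHC P22, 5.98 and 1.31 in P7 OHC 15 and 14, and 5.02 to 47.1 in the cHC and IHC libraries. Chdh thus was higher in mature than in P7 OHCs, as Cacna1d was, its part in the level of Cacna1d was not tested, and whether the authors counted by strand is not given in the sources used here.

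Cacna1b, the pore of the N-type channel that drives transmitter release in neurons, set the cHCs apart. Cacna1b (ENSMUSG00000004113; mm9 chromosome 2, 24459407 to 24618672, minus strand), whose start region is shown above, had 1 and 7 counts in SC 12 and 11 and 3698 and 10805 counts in cHC 13 and 16. Its level was 157 and 274 in the cHC libraries, 7.41 and 28.4 in OHC P21 and OHC P22, and 0.876 and 0.722 in the IHC libraries. P7 OHC 15 and 14 held 0.134 and 4.23. Both cHC libraries lay above all others, and the P7 OHC pair spread over more than an order of magnitude. Cacna1b rose in cHCs against SCs by 10.74 (SE 1.83, edgeR FDR 0.011) and in mature OHCs against SCs by 7.15 (SE 1.60, edgeR FDR 0.0202). Without SC 12 neither passed (edgeR FDR 0.0579 and 0.0808), and when the mature OHC and SC libraries alone were fitted the latter did not pass (edgeR FDR 0.105). IHCs were lower than cHCs by a log2 fold change of -8.07 (SE 1.63, edgeR FDR 0.0476), which passed only narrowly and was lost without IHC P74 (edgeR FDR 0.178), without IHC P75 (0.174) and without cHC 16 (0.144). In the comparisons of cHCs with OHCs the values were -3.59 for mature cells (SE 1.32, edgeR FDR 0.179) and -6.60 for P7 (SE 1.52, edgeR FDR 0.126), and neither passed. DESeq2 and edgeR without a filter on low counts called both differences, and limma-voom called that for P7.

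Per length, Cacna1d and Cacna1b were level in cHCs, at 22 and 21.7 TMM-scaled CPM per kb of exon. Of all alpha1 counts per kb, Cacna1d held 59.1% in cHC 13 and 40.4% in cHC 16, and Cacna1b held 38.3% and 56.8%. In the 6 OHC and IHC libraries Cacna1d held between 93.3% and 99.7%. The SC libraries did not share a leading gene: Cacna1d held 96.4% in SC 12 and 13.7% in SC 11, where Cacna1a, the P/Q-type pore, led with 81.8%. Class totals were far apart, at 3.13 and 0.415 CPM per kb in the SC libraries against 31.1 to 359 in the hair cell libraries. None of the other 5 alpha1 genes tested passed in the edgeR model. DESeq2 and limma-voom called Cacna1c higher in cHCs than in SCs. DESeq2 also called Cacna1f in 5 comparisons, each against SCs or cHCs, in which it had no count, and edgeR without a filter called it in the joint test. Cacna1a was highest in the IHC libraries (13.4 and 8.49) and cHC 13 (10.3). Cacna1f, the retinal L-type pore, was at 17.1 in OHC P22 and at 0 in OHC P21, and at 8.56 in IHC P75 and 0 in IHC P74. The cardiac L-type pore Cacna1c was at most 5.28, and Cacna1e and Cacna1g at most 2.28 and 2.12.

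**Figure D3:**
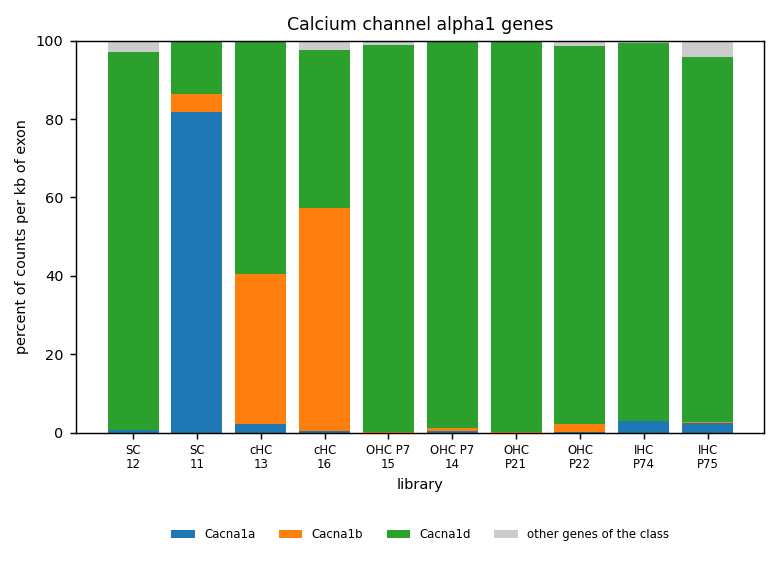
Share of each gene in the counts per kb of exon of the calcium channel alpha1 genes, in percent, with a stacked bar per library. Genes that stayed under 10% in every library are pooled in grey, and Cacna1d fills at least 93.3% of the OHC and IHC bars while the cHC bars are divided between Cacna1d and Cacna1b.

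Genes of the alpha2delta class, which raise channel currents from outside the cell, did not pass in the edgeR model, while DESeq2 called Cacna2d1 and Cacna2d2 in the joint test. Cacna2d2, the leading gene per length in all cell types but mature OHCs, was at 51.7 and 18.1 in SC 12 and 11 and at 15.7 and 16.7 in cHC 13 and 16. It was at 26.3 and 37.6 in P7 OHCs, 1.15 and 3.28 in mature OHCs, and 71.7 and 29.5 in IHCs. The mature OHC libraries were the lowest and did not overlap with any other cell type, but the joint test did not pass (edgeR FDR 0.141). DESeq2 called Cacna2d2 lower in mature OHCs than in each of SCs, cHCs, P7 OHCs and IHCs, and edgeR without a filter called it lower than in SCs and IHCs. In mature OHCs Cacna2d4, a subunit known from photoreceptor ribbon synapses, led the class, with 45.9 and 126 in OHC P21 and OHC P22. Cacna2d4 was at 32.7 and 0.106 in the SC libraries and at 3.33 to 36.6 in the rest (joint edgeR FDR 0.527), and SC 11 was the lowest library. Without SC 12, edgeR called Cacna2d4 higher in mature OHCs than in SCs. Cacna2d1 reached 17.4 in cHC 16 and was at most 4.14 elsewhere. Cacna2d3 reached 4.88 in IHC P74 and was at most 3.33 elsewhere.

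Among the intracellular beta subunits, Cacnb2 was near the floor in supporting cells and called higher in 3 hair cell types. Cacnb2 (ENSMUSG00000057914; mm9 chromosome 2, 14525933 to 14909535, plus strand), the beta subunit of the hair cell CaV1.3 channel, had 1 and 14 counts in SC 12 and 11. It had 825 and 3391 counts in cHC 13 and 16, 1777 and 8863 in P7 OHC 15 and 14, 728 and 948 in OHC P21 and OHC P22, and 2196 and 3067 in IHC P74 and IHC P75. As TMM-scaled CPM it was at 0.0444 and 0.372 in SCs, 35.1 and 86.1 in cHCs, 119 and 242 in P7 OHCs, 64.2 and 39.9 in mature OHCs, and 74 and 105 in IHCs. All 8 hair cell libraries lay above both SC libraries, and the P7 OHC libraries were the highest. Cacnb2 rose against SCs by 8.08 in cHCs (SE 1.14, edgeR FDR 0.00339), 7.86 in mature OHCs (SE 1.13, edgeR FDR 0.00201) and 8.64 in IHCs (SE 1.16, edgeR FDR 0.00219). When the cHC and SC libraries alone were fitted, the first of these no longer passed (edgeR FDR 0.0684). Of all beta counts per kb, Cacnb2 held 79.7% and 82.4% in P7 OHC 15 and 14, 85.7% and 48.4% in OHC P21 and OHC P22, and 79.5% and 41.1% in IHC P74 and IHC P75. In cHC 13 and 16 it held 48.5% and 40.2%, and in cHC 16 and IHC P75 Cacnb3 held slightly more (42.6% and 41.9%). In SCs the leading gene was Cacnb1 in SC 12 (68%) and Cacnb3 in SC 11 (81.6%). Cacnb1, the beta subunit of skeletal muscle, was at 80.8 and 3.98 in SC 12 and 11 and at most 17.2 in the hair cell libraries (joint edgeR FDR 0.132). Cacnb3 was spread over all cell types, between 3.26 and 36.3 (joint edgeR FDR 0.919). Cacnb4 was at most 4.42 in 9 libraries and at 41.1 in IHC P75.

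Of the gamma genes, Cacng5 gave the smallest FDR of any member. Cacng5 (ENSMUSG00000040373; mm9 chromosome 11, 107735919 to 107776369, minus strand), a type II TARP of the AMPA receptor, was at 0.0444 and 0.159 in SC 12 and 11 and at 0.202 and 0.103 in IHC P74 and IHC P75. It was at 41.1 and 71.8 in cHC 13 and 16, 15.2 and 20.1 in P7 OHC 15 and 14, and 204 and 168 in OHC P21 and OHC P22. The SC and IHC libraries lay together near the floor, and every cHC and OHC library lay above them without overlap. Against SCs, Cacng5 rose by 8.97 in cHCs (SE 1.08, edgeR FDR 0.00125) and by 10.70 in mature OHCs (SE 1.15, edgeR FDR 0.000304). IHCs fell below cHCs (-8.49, SE 1.06, edgeR FDR 0.00594) and below mature OHCs (-10.21, SE 1.13, edgeR FDR 0.00219). For IHCs against mature OHCs Cacng5 was the 1 member called, where 1.46% of all genes were called. That count was 4 without either P7 OHC or either SC library, 3 without cHC 13 and 2 without cHC 16. The 4 calls of Cacng5 held without each library in turn. As mean levels Cacng5 was at 56.5 in cHCs and 17.7 in P7 OHCs, a difference that did not pass (edgeR FDR 0.454).

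Cacng2 (stargazin, the type I TARP that carries AMPA receptors to synapses) followed another pattern. It was at 2 and 86.3 in cHC 13 and 16 and at 10.3 and 21.3 in P7 OHC 15 and 14. In SC 12 and 11 it was at 0.0444 and 0.0797, in mature OHCs at 0.353 and 0.337, and in IHCs at 0.472 and 0.0344. Its joint test passed (edgeR FDR 0.038) but no comparison of 2 cell types did, and cHC 13 lay between the low cell types and P7 OHCs while cHC 16 was the highest library. Cacng4 was at most 1.51, in SC 11, and Cacng7 was at 15.3 and 1.03 in the IHC libraries and at most 0.529 elsewhere. Cacng1, Cacng4 and Cacng5 lie side by side on mm9 chromosome 11, and Cacng6, Cacng7 and Cacng8 on chromosome 7.

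Sodium channel alpha genes were sparse in SCs. By mean level per length, Scn11a led the class in cHCs and Scn8a in OHCs and IHCs. Scn11a (NaV1.9, ENSMUSG00000034115; mm9 chromosome 9, 119662881 to 119734574, minus strand), a tetrodotoxin-resistant channel best known from pain-sensing neurons, had 808 and 6245 counts in cHC 13 and 16 and 2 and 6 counts in SC 12 and 11. In P7 OHC 15 and 14 it had 3 and 588 counts, in OHC P21 and OHC P22 it had 136 and 245, and in both IHC libraries it had none. As TMM-scaled CPM these were 34.4 and 159 in cHCs, 0.201 and 16 in P7 OHCs and 12 and 10.3 in mature OHCs. The cHC libraries were the highest. The differences of Scn11a from cHCs did not pass in P7 OHCs (edgeR FDR 0.464) or mature OHCs (edgeR FDR 0.336). IHCs were lower than cHCs (edgeR FDR 0.0484), by at least 945-fold when 3 counts in each IHC library are taken as the floor. This call was lost without IHC P74 (edgeR FDR 0.145), IHC P75 (0.126) or cHC 16 (0.156), and on thinned libraries (0.0517). Of the members tested, 3 were lower in IHCs than in cHCs (Cacna1b, Cacng5 and Scn11a) and none higher, where 0.924% of all genes were called. Without IHC P74, IHC P75 or cHC 16 the count was 1. Against SCs, the differences of Scn11a did not pass in cHCs (edgeR FDR 0.0711) or mature OHCs (edgeR FDR 0.0766). DESeq2 and edgeR without a filter on low counts called both. The difference in cHCs was also called by limma-voom and when the cHC and SC libraries alone were fitted.

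Scn8a (NaV1.6, the main channel at nodes of Ranvier) led the class per length in P7 OHCs, mature OHCs and IHCs by the mean of their libraries. It was at 49.2 and 32.2 in P7 OHCs, 174 and 24.3 in mature OHCs, 38.3 and 28.9 in IHCs, 3.23 and 3.35 in cHCs, and 0.0444 and 5.13 in SCs. Both cHC libraries lay below all OHC and IHC libraries, and the joint test did not pass (edgeR FDR 0.144). DESeq2 and edgeR without a filter on low counts called Scn8a in the joint test and between mature OHCs and cHCs. Scn4a, the skeletal muscle channel, was second in cHCs, at 13.5 and 76.4 in cHC 13 and 16, with 6.85 in SC 11 and at most 1.68 elsewhere (joint edgeR FDR 0.0959). DESeq2 and edgeR without a filter also called Scn4a in the joint test. In cHC 13 and 16 Scn11a held 72.9% and 70.8% of the alpha counts per kb and Scn4a 23.7% and 28.3%, while Scn8a held 3.3% and 0.72%. In the IHC libraries Scn8a held 87.6% and 71.9%, and in OHC P21 and OHC P22 83.5% and 35.9%. In P7 OHC 15 it held 93.7%, while in P7 OHC 14 Scn11a (50.8%) and Scn8a (49%) were level. Summed over the class, the level was 8.08 and 38.4 CPM per kb in cHCs, 17.1 and 5.59 in mature OHCs, 3.6 and 3.31 in IHCs and 0.119 and 1.42 in SCs. Scn9a reached 5.95 in IHC P75, and Scn1a 3.94 in IHC P74. Scn10a and Scn11a are neighbours on mm9 chromosome 9, and Scn1a, Scn3a, Scn7a and Scn9a on chromosome 2. The level of 10 spiral ganglion neuron markers, which could bring neuronal sodium channel RNA, was 104 and 193 in cHC 13 and 16 and 22.2 and 0.372 in SC 12 and 11. In P7 OHCs it was 218 and 229, and in mature OHCs 247 and 94.8. In cHC 13 and 16 most of it came from Nefm (66.2 and 105), Rbfox3 (24.7 and 44.8) and Syn1 (10.7 and 30.5), while Prph and Thy1 were at 0 and Tubb3 at 0 and 0.0508. The markers' part in these levels was not tested.

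Among the sodium channel beta genes, Scn3b stood highest in IHCs. Scn3b (ENSMUSG00000049281; mm9 chromosome 9, 40076801 to 40099203, plus strand), a beta subunit of many neurons, had 2604 and 6808 counts in IHC P74 and IHC P75 and 0 and 3 counts in SC 12 and 11. In cHC 13 and 16 it had 3 and 844 counts, in P7 OHC 15 and 14 it had 159 and 1706, and in OHC P21 and OHC P22 it had 8 and 10. As TMM-scaled CPM the IHC libraries held 87.7 and 234, P7 OHCs 10.7 and 46.5, cHCs 0.128 and 21.4, and mature OHCs 0.705 and 0.421. Both IHC libraries lay above all others, and the cHC libraries were split, 1 near the level of SCs and the other within the range of P7 OHCs. Scn3b rose in IHCs against SCs (edgeR FDR 0.0303), with a ratio of 3211 over both libraries and a 95% counting interval of 1098 to 15572, which covers counting error only. Without SC 12 or SC 11 it no longer passed (edgeR FDR 0.0997 and 0.0697). The supporting cell and neuron markers given above for the IHC libraries move with this group, and their part was not tested. Scn2b was at most 0.97 in any library. Scn4b was at 3.6 and 3.95 in the IHC libraries, 1.85 and 0.842 in the mature OHC libraries, and had at most 1 count in each of the others.

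**Figure D4:**
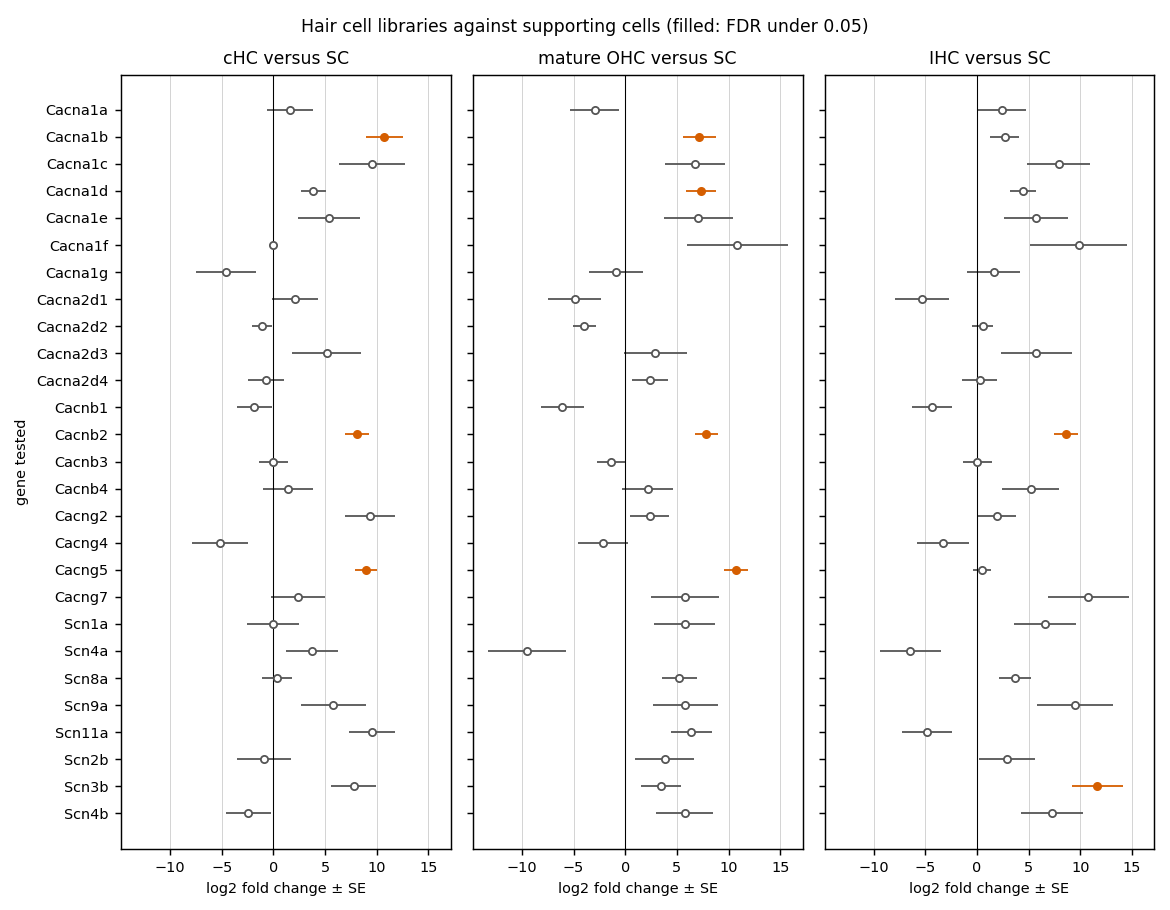
Log2 fold change against SCs, with its standard error, for the tested members reported here, in cHCs, mature OHCs and IHCs. Filled points have an edgeR FDR under 0.05, and all of them lie to the right of 0, with Cacnb2 filled in all 3 panels.

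Comparisons within hair cells gave few calls among the members in edgeR. Between mature OHCs and cHCs none of the 29 members passed in edgeR, where 3.18% of all genes were called. At an unadjusted p under 0.05 were 11 of these members, beside 3257 of all 16891 genes tested. DESeq2 called 11 members and limma-voom 2 there, and edgeR called 4, among them Cacna1d, Scn4a and Scn8a, without SC 11 or without SC 12. Between P7 OHCs and cHCs none passed in edgeR either, where 0.343% of all genes were called. At an unadjusted p under 0.05 were 2 members, beside 1884 of all 16891 genes. DESeq2 called 2 members there and limma-voom 1. Between mature and P7 OHCs none passed in edgeR, where 0.551% of all genes were called. At an unadjusted p under 0.05 were 8 members, beside 2340 of all 16891 genes. DESeq2 called 4 members there and limma-voom none. The shares of all genes called by DESeq2 and limma-voom were not computed. The medians of the members in these 3 comparisons were 0.00, -0.91 and 0.45, beside -0.19, -0.09 and -0.04 over all genes. In IHCs the median was 0.65 against cHCs and 0.81 against mature OHCs, beside -0.05 and 0.03. With genes absent from 1 group at their bound, the 5 medians were -0.11, -0.58, 0.45, 0.61 and 0.98. Scn4a had 3324 counts over both cHC libraries and none in mature OHCs, a level at least 229.9-fold lower, and this difference did not pass (edgeR FDR 0.121). DESeq2, limma-voom and edgeR without a filter on low counts called it.

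Genes related to these channels were described beside them. Of 22 calcium channel partners (synaptic scaffolds, calcium sensors, RGK proteins and calcium-activated potassium channels), 20 were tested and 9 differed among the cell types, among them Cabp1, Rimbp2, Rims2, Ush1c, Kcnma1, Kcnn2, Rem1 and Calm2, where 7.81% of all genes were called. Against SCs, 5 rose in cHCs, 6 in mature OHCs and 7 in IHCs, and none fell, where 1.84%, 8.02% and 2.65% of all genes were called. Rimbp2, which links calcium channels to the vesicle release site, was at 0 in both SC libraries, at 6.34 and 30.03 in cHCs and at 8.59 to 91.2 in the other hair cell libraries. Rims2, an active zone scaffold, was at 243 and 274 in cHCs, 129.7 and 178 in IHCs, 71.4 and 142 in P7 OHCs and 0.882 and 4.42 in mature OHCs. The BK channel gene Kcnma1 was at 0.255 and 0.356 in cHCs, near the SC values of 0.0444 and 0.0266, against 25.7 to 479 in the OHC and IHC libraries. Cabp2, a calcium sensor that keeps CaV1.3 channels open, was at 14.9 and 26.2 in cHC 16 and 13 and at 11.1 and 22.7 in P7 OHCs, against 302 to 469 in mature OHCs and IHCs (joint edgeR FDR 0.0937), and SC 11 held 23.2 and SC 12 none. Median log2 fold changes of these 20 genes against SCs were 3.52 in cHCs, 4.45 in mature OHCs and 5.49 in IHCs, beside 0.03, 0.00 and 0.00 over all genes.

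Sodium channel partners, a list of 18 genes of which 14 were tested, differed for 9: Fgf11, Ank2, Nrcam, Nfasc, Cntn1, Nalcn, Unc80, Fam155a and Nedd4l. The list is wider than its name. It also held the leak channel gene Nalcn, genes of the Nalcn complex (Unc79, Unc80 and Fam155a) and Scn2a1, itself an alpha gene. Its counts therefore do not describe partners of voltage-gated sodium channels alone. Against SCs, 3 rose in cHCs and none fell. In mature OHCs 3 rose and 5 fell, and in IHCs 2 rose and 1 fell. The shares of all genes called were those given for the calcium channel partners (7.81% in the joint test and 1.84%, 8.02% and 2.65% against SCs). Fgf11, a channel-binding FGF, was at 89.7 and 129 in cHCs, 13.8 and 19.4 in P7 OHCs and at most 1.24 elsewhere. Nfasc, an adhesion molecule of axon initial segments, was at 127 and 114 in cHCs and at 0.355 and 0.133 in SCs. Nalcn was at 91.7 and 108 in SCs, 32.7 and 48.8 in IHCs and 0.264 and 0.126 in mature OHCs, and it fell in mature OHCs against SCs (-9.03, SE 1.66, edgeR FDR 0.00736). Scn2a1, outside the naming rule, was at 15 in P7 OHC 15 and at most 1.32 elsewhere, with no count in P7 OHC 14. Median log2 fold changes of these 14 genes against SCs were 2.25 in cHCs, 2.11 in mature OHCs and 2.0 in IHCs, beside the same medians over all genes.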

How the data were processed

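RNA of handpicked cells was converted to cDNA and amplified with the Ovation RNA-Seq System V2. Per the labels and the study's methods, the authors called bases with CASAVA 1.7, trimmed adapters, aligned reads to mm9 (STAR, BWA) and used HTSeq for counting; its strand setting is not given in the sources used here. The deposited files hold raw counts per gene symbol, of which rows for unassigned reads were left out. Genes took 27.9% to 55.8% of all reads. The file named for each sample was used, checked against the study's table of expression values.

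All genes were tested in 1 model of 10 libraries with edgeR 4.0.16 (R 4.3.3), using TMM factors, filterByExpr by cell type, quasi-likelihood F-tests and Benjamini-Hochberg adjustment over 16891 genes. Standard errors were the log2 fold change over the root of F, tests were 2-sided and the common dispersion was 1.12. CPM per kb used the exon length of GENCODE genes on mm9, where Scn8a has 2 gene entries. Floors and intervals (3 counts in each library, 95%) cover counting error only. Alternatives were DESeq2 1.42.0, limma 3.58.1 with voom, RLE factors, other filters, fits of the compared cell types, the files as attached to the records, libraries thinned to 15016129 counts, and leaving out each library.

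Values were printed in full for Cacna1d, for members with an FDR under 0.05 in any test, and for the leading member per length of each class; others were given by range and counts, and further members and partner genes were named after their values were seen. The members and the lists of partners and markers were chosen with earlier results of these data known. Results of some members and partners are not reported here, and the counts of members include them.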

Additional observations from a re-analysis of the deposited data

How the results depend on the processing

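With 2 libraries per cell type and a common dispersion of 1.12, only large differences passed, and a missed threshold does not show that levels are alike. Counts of members called are given below in the order cHCs, mature OHCs and IHCs against SCs, mature OHCs, IHCs and P7 OHCs against cHCs, mature against P7 OHCs, and IHCs against mature OHCs. For these alternatives the shares of all genes were not computed, so the counts describe the members only. DESeq2 called 9, 10, 7, 11, 7, 2, 4 and 6, and 13 in the joint test. Without a filter on low counts edgeR called 7, 9, 4, 7, 6, 1, 3 and 7, and 14 in the joint test. Under limma-voom the counts were 5, 4, 5, 2, 5, 1, 0 and 2. A minimum of 10 counts in every library left 3 members to test, so edgeR called 1 in the joint test and 0, 2, 1, 0, 0, 0, 0 and 1, where 1, 2, 1, 2, 0, 0, 1 and 2 had an unadjusted p under 0.05. A fit of IHCs and mature OHCs alone called 2. With each record's own attached file, edgeR called 0 in every test (9 members at an unadjusted p under 0.05 in the joint test), and the log2 fold change turned for Cacna1b to -8.87 in cHCs against SCs, -2.13 in mature OHCs against SCs and 2.26 in IHCs against cHCs, and for Cacng5 to -1.42 in cHCs against SCs; in that alternative 4 libraries change their cell type. Leaving out 1 library gave 5 to 9 in the joint test and, in the same order, 3 to 6, 4 to 5, 2 to 3, 0 to 4, 1 to 3, 0, 0 and 1 to 4. RLE factors left every count as it was. The number of members detected in SCs fell from 9 to 4 at 10 counts in both libraries, and to 5 in thinned libraries. The causes of these changes were not tested beyond what each alternative itself alters. No paired analysis was possible because the cell types share no library numbers.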
